A study of Mus musculus with 33 samples.

Results

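Day 4 mouse embryoid bodies treated with SB-431542, a small-molecule inhibitor of the type I receptors for activin, Nodal and TGF-β, were compared with untreated embryoid bodies. The comparison used 3 of the 33 libraries of the study: the single SB-431542 library (SB) and the serum-free control libraries SFM replicate 1 and SFM replicate 2. They belong to a dose set made by DP-seq, in which cDNA is amplified with designed heptamer primers before sequencing. SFM replicate 1 was the reference. SFM replicate 2, whose treatment label adds spiked-in yeast transcripts, served as a check.

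The cells were differentiating mouse embryonic stem cells cultured without serum as embryoid bodies, aggregates that can form derivatives of all germ layers. The aggregates were dispersed on day 2, treated for 2 days and harvested on day 4. SFM received no activin and no inhibitor, SB received SB-431542 at a concentration not given in the sources used here, and the activin libraries of the same set received activin A at 3 ng/mL (AA3, 1 library), 15 ng/mL (AA15, 2 libraries labelled as technical replicates) or 100 ng/mL (AA100, 1 library). Neither the cell line nor its genotype is given in the labels, and no group carried a labelled genetic change. The labels do not say whether the SFM libraries stem from 1 culture or from different ones.

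Activin and Nodal bind type II receptors that activate type I receptors, which phosphorylate Smad2 and Smad3; these join Smad4 and partners such as Foxh1 at target genes. Nodal also needs a co-receptor of the Cripto family, and the pathway induces its own extracellular antagonists, the Lefty proteins and Cerberus. In the early embryo Nodal signalling is known for the primitive streak, mesoderm and endoderm, and for holding back neural fate in the epiblast.

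Promoter sequence is shown for the genes among the 5 markers of the comparison that have an entry in the RefSeq promoter table (mouse build GRCm38.p6), because these genes fell together. Each sequence is the 250 bases before the annotated start, read 5′ to 3′ on the gene's strand. The 30 bases after the start were found in a GENCODE transcript for Tdgf1 and Fgf5 but not for Cer1, whose start therefore rests on RefSeq alone. Capitals mark matches on either strand to CAGAC (reverse complement GTCTG), the short motif bound by Smads, and to AATNNACA (reverse complement TGTNNATT). The latter is a loose form of the Foxh1 motif in which N is any base, and stricter forms were not searched.
Cer1, chr4:82885152-82885401, minus strand: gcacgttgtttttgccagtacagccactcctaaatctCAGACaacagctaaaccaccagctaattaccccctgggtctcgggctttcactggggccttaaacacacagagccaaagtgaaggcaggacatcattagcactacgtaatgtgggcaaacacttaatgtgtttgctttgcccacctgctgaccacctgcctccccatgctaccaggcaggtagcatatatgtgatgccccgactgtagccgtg
Tdgf1, chr9:110946159-110946408, minus strand: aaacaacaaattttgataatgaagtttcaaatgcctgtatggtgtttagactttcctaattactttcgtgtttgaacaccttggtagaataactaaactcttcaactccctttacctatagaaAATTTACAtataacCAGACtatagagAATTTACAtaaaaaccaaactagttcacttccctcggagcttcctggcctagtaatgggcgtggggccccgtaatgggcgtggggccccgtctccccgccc
Fgf5, chr5:98253934-98254183, plus strand: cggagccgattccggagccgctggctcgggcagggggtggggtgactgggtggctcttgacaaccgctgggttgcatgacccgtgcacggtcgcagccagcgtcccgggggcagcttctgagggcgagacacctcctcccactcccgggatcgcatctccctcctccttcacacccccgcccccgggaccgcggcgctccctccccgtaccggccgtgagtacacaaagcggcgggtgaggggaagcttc
The Tdgf1 window held 1 Smad match lying between 2 matches to the loose Foxh1 pattern, both reading AATTTACA. The Cer1 window held 1 Smad match and no Foxh1 match, and the Fgf5 window held neither. Of all 32817 windows of this length in the table, 42.2% held a Smad match and 10.9% a Foxh1 match, so a match describes the letters and not a bound site.

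The 3 libraries had similar depth, with 15042168 counts in SB, 15395435 in SFM replicate 1 and 13053122 in SFM replicate 2. SFM replicate 2 stood apart from the rest. The housekeeping enzyme Gapdh had 15 counts there, against 57926 in SFM replicate 1 and 105472 in SB. Over all genes tested, the log2 ratio of the SFM libraries had an SD of 1.57, against 0.38 for the AA15 pair and 0.53 for SB over SFM replicate 1 (CPM + 0.5, where CPM is the count scaled to library size by TMM). Tests were therefore made with edgeR against SFM replicate 1, with the spread taken from the AA15 technical pair and the lone libraries assumed to vary like it. Their p-values set 2 libraries against technical spread and are not a replicate check of the treatment. A gene was called at an adjusted p under 0.05, and "rose" and "fell" below refer to such calls. DESeq2 in place of edgeR called 63 genes lower and 25 higher, all of them among edgeR's calls. Of 68 calls in genes taken by the naming rule it kept 32, the 5 markers included, and lost 19: Smad2, Smad7, Fst, Gsc, Gata3, Gata4, Prdm1, Dll3, Flt1, Dppa5a, Krt8, Zic1, Neurod1, Lin28a, Pkm, Gapdh, B2m, Rps19 and Rps27l. DESeq2 gave an adjusted p for 7627 genes only. The remaining named calls had none and were not checked by it, among them Adm, Apob, Gata6, Hand1, Crb3, Foxc2, Sim2, Nr2e1, Fmo1 and Cenpk. When both SFM libraries were instead fitted as replicates, edgeR called 0 genes, with 148 lower and 31 higher at an unadjusted p under 0.05. Values of most named genes are therefore also set against SFM replicate 2, while list medians and list calls rest on SFM replicate 1.

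Against SFM replicate 1, more genes fell than rose with the inhibitor, and the falls were larger; with SFM replicate 2 as the only control edgeR called 3318 genes lower and 3737 higher. Of 12076 genes tested, 326 fell in SB (2.7%) and 172 rose (1.42%), and 1852 had an unadjusted p under 0.05. Among the falls 90 were at least 4-fold and 35 at least 8-fold, with genes at 0 counts in SB set at the bound that a floor of 3 counts gives. Of the rises 17 were at least 4-fold and none was at least 8-fold on the same terms. The median log2 change of all genes was −0.03. Of the 326 falls, 228 were also below SFM replicate 2, and 140 were at least 2-fold below both controls. Of the 172 rises, 119 were also above SFM replicate 2, and 69 were at least 2-fold above both. Both ratios share the SB library, and of all genes tested 46.9% lay below SFM replicate 2 and 52.8% above it. Without regard to the test, 250 of 10071 genes with enough counts were at least 2-fold below both controls (2.48%) and 166 at least 2-fold above both (1.65%).

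**Figure D1:**
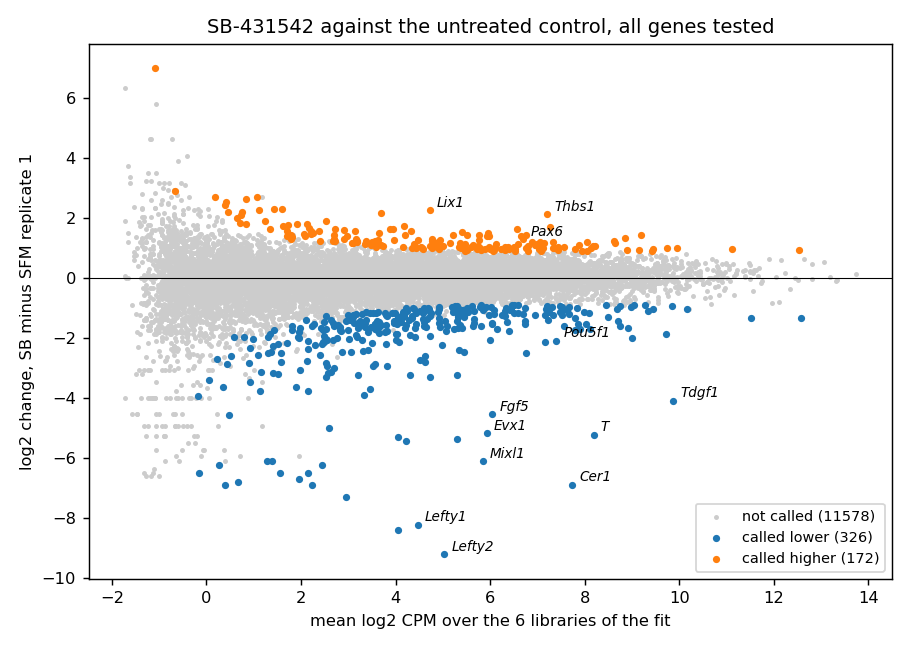
Log2 change in SB minus SFM replicate 1 (y axis) against mean log2 CPM over the 6 libraries of the fit (x axis), 1 point per gene tested. The 326 called falls (blue) reach far lower than the 172 called rises (orange) reach up, and Lefty1, Lefty2 and Cer1 lie at the bottom; genes with 0 counts in SB are drawn at fitted values that depend on a prior count.

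The secreted antagonists of Nodal, which are also its direct targets, were at or near 0 with the inhibitor. For a gene at 0 counts in SB, a fold given as "at least" here and below sets SB at a floor of 3 counts. It takes the control count as exact, so where the control also had few counts the fold could be smaller. Lefty2, a feedback inhibitor that blocks Nodal and its co-receptor, had 0 counts in SB, 80 in SFM replicate 1 and 199 in SFM replicate 2. It was at least 24.9-fold lower than the first control and at least 102-fold lower than the second (edgeR adjusted p = 4.2e-12). Its paralogue Lefty1 had 0 counts in SB, 40 in SFM replicate 1 and 5 in SFM replicate 2. SB was at least 12.5-fold below the first control and at least 2.56-fold below the second (edgeR adjusted p = 2.3e-07). Both genes were present in every other library of the set: Lefty2 had 189 counts in AA3, 494 and 441 in AA15 and 1737 in AA100. The Lefty genes share sequence, with 25.1% of the 32-base words of Lefty1 and 17.7% of those of Lefty2 found in another gene, mostly the other Lefty. Reads could have been split between them, but with 0 counts for both in SB that does not alter the direction.

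Cer1, which encodes Cerberus, a secreted antagonist of Nodal, BMP and Wnt, had 4 counts in SB against 523 and 491 in the controls. The fold below SFM replicate 1 was 122 (95% counting interval 47.5 to 450) and the log2 change −6.90 ± 0.49 (SE; edgeR adjusted p = 3.1e-26). Below SFM replicate 2 the fold was 189. Scaled for depth the controls had 30.6 and 47.3 CPM, and the activin libraries lay above both, from 78.7 CPM in AA3 to 719 CPM in AA100. Fst, which encodes the activin-binding protein follistatin, had 7 counts in SB, 31 and 16 in the controls, and a log2 change of −2.04 ± 0.62 (edgeR adjusted p = 0.0364). Bambi, a pseudoreceptor, had 126 counts against 83 and 199 and was not called.

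Tdgf1, the Cripto co-receptor of Nodal, had 192 counts in SB, 3514 in SFM replicate 1 and 2307 in SFM replicate 2. It was 17.1-fold below the first control (14.8 to 19.9) and 18.5-fold below the second, with a log2 change of −4.11 ± 0.33 (edgeR adjusted p = 1.9e-22). Its counts elsewhere in the set ran from 9537 in AA3 to 31005 in AA100, so SB was the lowest library and SFM the next. Of its 32-base words 12.3% also occur in another gene, chiefly the Tdgf1-ps1 pseudogene. Cfc1, the related co-receptor Cryptic, fell from 66 counts in SFM replicate 1 to 4 in SB (log2 change −3.92 ± 0.62, edgeR adjusted p = 1.1e-06). SFM replicate 2 had 1 count of Cfc1, so this fall held against 1 control only.

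The receptors that the compound inhibits, and their partners, were not called. The type I receptor gene Acvr1b had 110 counts in SB and 135 and 151 in the controls, with a log2 change of −0.21 ± 0.37 (edgeR adjusted p = 0.868). Tgfbr1, the type I receptor for TGF-β, had 864 against 579 and 498, with +0.66 ± 0.30 (edgeR adjusted p = 0.231). The type II receptor gene Acvr2a had 930 against 821 and 568, with +0.27 ± 0.29 (edgeR adjusted p = 0.747). The other type II receptor, Acvr2b, had 127 against 155 in SFM replicate 1 but 2 in SFM replicate 2. Acvr1c and Tgfbr2 had 0 counts in SB and both controls and were not tested.

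None of the 7 ligand genes tested was called. Nodal itself was scarce, with 2 counts in SB, 14 in SFM replicate 1 and 2 in SFM replicate 2 (edgeR adjusted p = 0.0997). The ratio to SFM replicate 1 was 6.55 with a counting interval of 1.503 to 59.3, and no fold could be given against SFM replicate 2. The activin libraries held 84 to 213 counts of Nodal. Inhba, the activin A subunit, had 20 counts against 52 and 77, with a log2 change of −1.29 ± 0.49 (edgeR adjusted p = 0.126). Tgfb1 had 1 count against 12 and 1.

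Among the signal transducers Smad2 was the single call. It had 1618 counts in SB, 3743 in SFM replicate 1 and 1665 in SFM replicate 2, and a log2 change of −1.12 ± 0.31 (edgeR adjusted p = 0.0255). Scaled for depth it was 2.16-fold below the first control and 1.58-fold below the second. The AA15 pair itself differed for this gene, at 128 ± 56.7 CPM (mean ± SD, n = 2). The call was lost with DESeq2 (adjusted p = 0.927) and when dilution library pairs of the AA3 sample were added to the edgeR fit (adjusted p = 0.187). Smad3 (−0.38), Smad4 (−0.57) and Foxh1 (−0.83) had negative log2 changes and were not called. With SFM replicate 2 as the only control, their log2 changes were positive, at 0.45, 0.33 and 0.40. Of the inhibitors inside the cell Smad7, which blocks the type I receptors and is a direct target, fell from 96 to 29 counts (−1.64 ± 0.42, edgeR adjusted p = 0.00729). SFM replicate 2 had 22 counts, which was 1.17-fold above SB after scaling. Pmepa1, another target, had 3 counts against 12 and 3 and was not called.

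Over all pathway roles 8 of 31 tested genes fell, none rose and 9 of the 40 listed had too few counts to test. Of all genes tested 2.7% fell and 1.42% rose, which is the background for each list count here and below. Their median log2 change was −0.57, against −0.03 for all genes. The falls were 4 of 5 extracellular inhibitors tested, 2 of 3 convertases and co-receptors, 1 of 4 transducers and 1 of 7 intracellular inhibitors. No ligand and no receptor was among them. Of the 20 genes listed as Activin/Nodal targets, 19 were tested, 11 fell and none rose. Their median log2 change was −4.11 as fitted and −2.32 with the 5 tested genes at 0 in SB set at their bound. Otx2, a forebrain and epiblast factor on that list, was not called, at 16079 counts in SB against 13643 in SFM replicate 1 and 661 in SFM replicate 2.

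**Figure D2:**
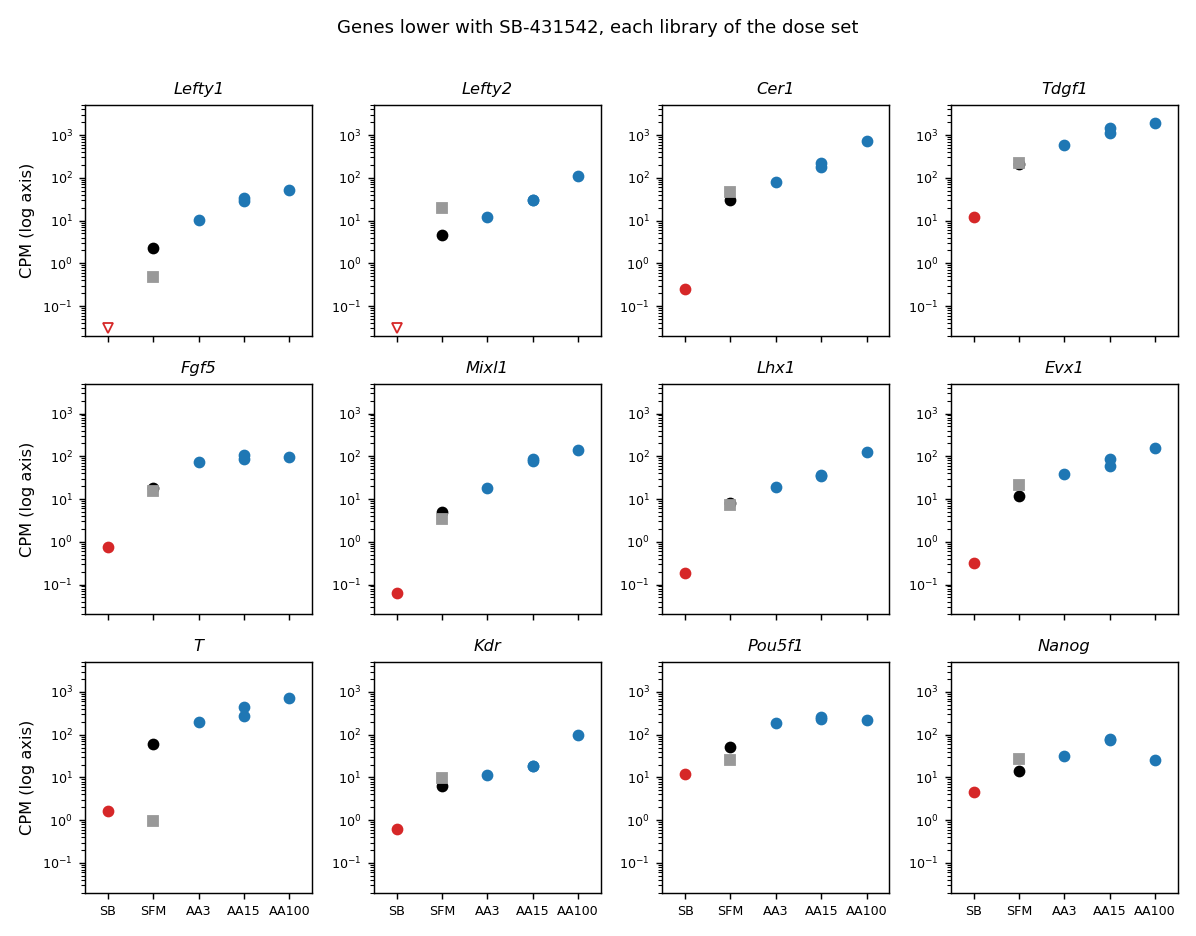
TMM-scaled CPM on a log axis for 12 genes in each of the 7 libraries of the dose set (SB red, SFM replicate 1 black circle, SFM replicate 2 grey square, activin libraries blue, open triangle for 0 counts, drawn at the axis floor). SB is the lowest library in all panels but T, where SFM replicate 2, with 10 counts, lies below the 26 of SB.

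Genes of the primitive streak, the structure through which mesoderm and endoderm form, were mostly close to 0 in SB. Mixl1, a homeobox gene of the streak, had 1 count in SB, 83 in SFM replicate 1 and 35 in SFM replicate 2. The ratio to the first control was 77.6 with a counting interval of 13.6 to 3101 (edgeR adjusted p = 1.4e-11). Lhx1, a homeobox gene of the anterior streak and node, had 3 counts against 139 and 75 (ratio 43.3, interval 14.5 to 213; edgeR adjusted p = 4.9e-14). Both controls lay above SB for these genes, and no 32-base word of either occurs in another gene.

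Evx1, a homeobox factor of the streak's posterior end, had 5 counts in SB and 198 and 217 in the controls. It was 37.0-fold and 66.8-fold lower, with an edgeR adjusted p of 6.4e-16. Wnt8a, a streak Wnt ligand, had 0 counts against 10 and 6, at least 3.12-fold below the first control and at least 3.08-fold below the second (edgeR adjusted p = 0.0228). T, which encodes Brachyury, the classical pan-streak factor, had 26 counts in SB and 1044 in SFM replicate 1, a log2 change of −5.23 ± 0.39 (edgeR adjusted p = 2.3e-20). SFM replicate 2 had only 10 counts of T, so SB lay between the controls. Gsc, the organizer gene Goosecoid, showed the same layout, with 5 counts in SB, 29 in SFM replicate 1 and 1 in SFM replicate 2 (edgeR adjusted p = 0.0156); it was not called with DESeq2 (adjusted p = 0.211).

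In all 6 of 17 tested streak genes fell and none rose, and the median log2 change was −2.42, or −1.47 with genes at 0 in SB at their bound. The summed level of the 22 listed genes was 6.08 CPM in SB, 96.5 and 41.6 in the controls, 295.5 in AA3 and 1210 in AA100. SB was thus the lowest library of the set for the list as a whole. Eomes, the T-box factor upstream of mesendoderm, had 0 counts against 5 and 2 and was not called. Since these are bulk libraries, fewer cells of a type and less RNA of a gene per cell cannot be told apart, here and for all groups below.

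Genes of mesoderm and its vessels fell in part. Kdr, the VEGF receptor of early mesoderm and endothelium, had 10 counts in SB against 105 and 103. It was 9.82-fold (5.13 to 21.1) and 15.8-fold lower, with a log2 change of −3.29 ± 0.48 (edgeR adjusted p = 8.4e-08). Aplnr, the apelin receptor of migrating mesoderm, had 2 counts against 98 and 193 (ratio 45.8, interval 12.4 to 384; edgeR adjusted p = 3.5e-11). Prdm6, a transcriptional repressor, had 2 against 89 and 139. Hand1, of lateral and extraembryonic mesoderm, had 0 against 9 and 8, at least 2.81-fold below the first control and at least 4.10-fold below the second (edgeR adjusted p = 0.0388).

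Of 13 tested mesoderm genes 4 fell and 1 rose, with a median log2 change of −1.23, or −0.32 with genes at 0 in SB at their bound. The riser was Dll1, a Notch ligand used in both presomitic mesoderm and neurogenesis, with 306 counts against 139 and 77 (log2 change +1.23 ± 0.36, edgeR adjusted p = 0.0281). Its paralogue Dll3 fell from 447 to 179, but SFM replicate 2 held 64 counts. Foxc2, a mesenchymal forkhead factor, had 3 counts against 23 and 269, so its controls differed from each other more than SB did from the first. The 1 call of 6 tested blood and endothelial genes was Flt1, a VEGF receptor, at 40 counts against 121 and 49.

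Of 18 tested genes of definitive and anterior endoderm 8 fell and none rose, with a median log2 change of −1.40. Besides Cer1, Lhx1 and Gsc these included Cldn6, Gata4, Gata6 and Prdm1. Gata6, an endoderm zinc-finger factor, had 6 counts in SB and 30 and 29 in the controls (4.68-fold and 7.44-fold lower; edgeR adjusted p = 0.0313). Gata4 had 75 against 223 in SFM replicate 1 (edgeR adjusted p = 0.00312) but 35 in SFM replicate 2. Foxa2, the forkhead factor of node and endoderm, had 52 against 108 and 12 and was not called. In the extraembryonic endoderm list 4 of 17 tested genes fell. Cubn, the cubilin receptor of visceral endoderm, had 77 counts against 301 and 159 (log2 change −1.88 ± 0.35, edgeR adjusted p = 5.8e-05). Apob, the apolipoprotein of the same tissue, had 8 against 43 and 29 (edgeR adjusted p = 0.0194).

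**Figure D3:**
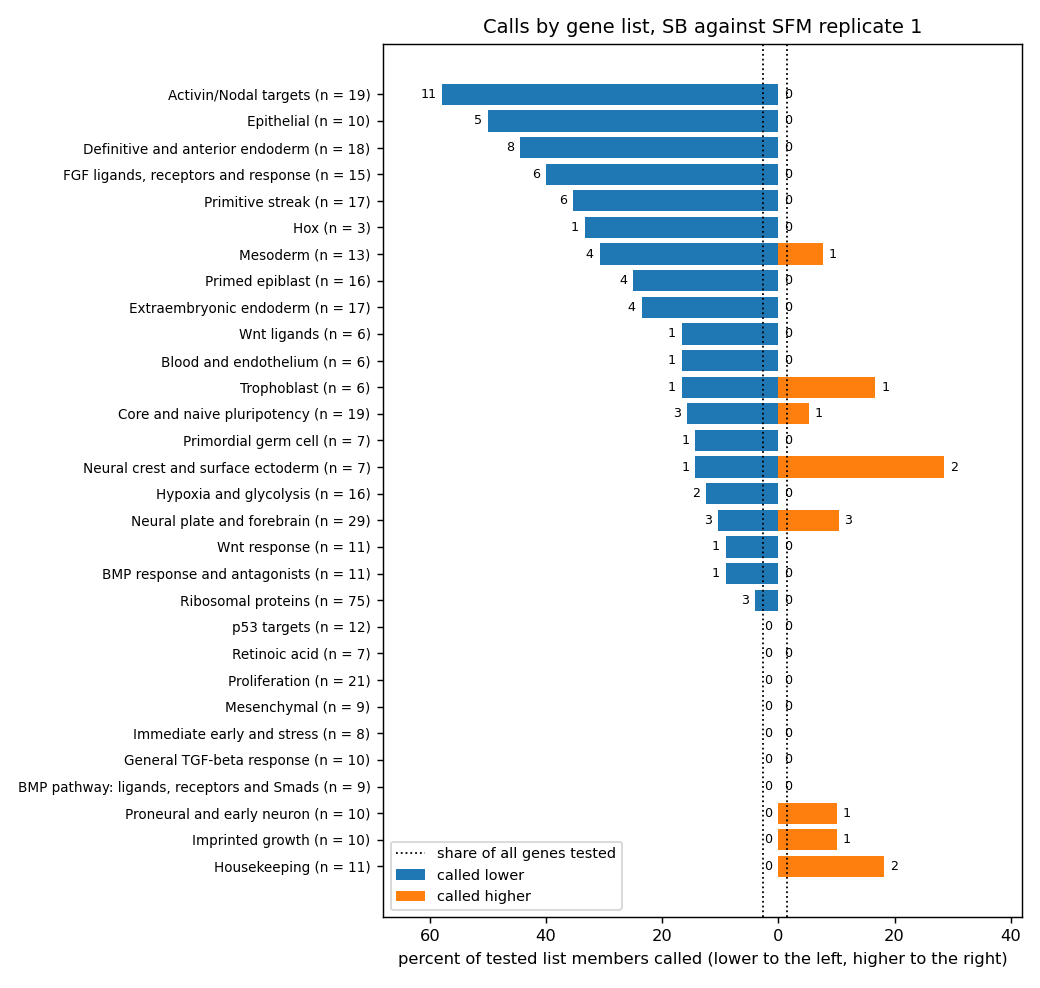
Percent of the tested members of each gene list called lower (bars to the left) or higher (bars to the right) in SB against SFM replicate 1, with the number called at each bar end. Dotted lines mark the shares of all genes tested, 2.7% lower and 1.42% higher; the Activin/Nodal target bar holds 11 of 19 genes lower, and the lists for proliferation and p53 targets have no call.

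Genes of the primed epiblast, the pluripotent layer from which the streak forms, gave a divided picture. Fgf5, the standard marker of that state, had 12 counts in SB, 301 in SFM replicate 1 and 160 in SFM replicate 2. It was 23.5-fold (13.2 to 45.9) and 20.5-fold lower, with a log2 change of −4.55 ± 0.42 (edgeR adjusted p = 1.8e-17). In the activin libraries it had 1175 to 1539 counts, and the AA15 mean of 96.6 CPM lay beside 94.1 CPM in AA100. Pim2, a kinase gene expressed in pluripotent cells, had 1275 counts against 4975 and 12350 (3.65-fold and 14.9-fold lower; edgeR adjusted p = 4.0e-07). Of the 16 listed genes, all tested, 4 fell (Cldn6, Fgf5, Pim2 and Tdgf1), and the median log2 change was −0.27.

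Some core pluripotency factors fell as well. Pou5f1, which encodes Oct4, had 195 counts in SB against 880 and 268 in the controls. It was 4.22-fold (3.61 to 4.95) and 2.11-fold lower, with a log2 change of −2.09 ± 0.30 (edgeR adjusted p = 7.6e-08). Nanog, a factor that Smad2 and Smad3 activate in epiblast-type cells, had 71 counts against 242 and 278 (log2 change −1.68 ± 0.34, edgeR adjusted p = 3.0e-04). Dppa5a fell from 181 to 39, with 31 in SFM replicate 2. Sox2, shared by pluripotent and neural cells, had 1255 counts against 957 and 403 and was not called. Lin28a, an RNA-binding protein of stem and early neural cells, rose, with 27918 counts against 14903 and 1528 (log2 change +0.99, edgeR adjusted p = 0.0197). In all 3 of 19 core and naive pluripotency genes fell and 1 rose.

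Genes of the epithelial list had lower values throughout. All 10 genes had negative log2 changes, 5 of them called, with a median of −1.40. Cdh1, E-cadherin, had 492 counts in SB, 1516 in SFM replicate 1 and 4373 in SFM replicate 2 (2.88-fold and 13.7-fold lower; edgeR adjusted p = 9.7e-05). Cldn6, a tight junction claudin of epiblast and endoderm, had 6014 against 15945 and 19422 (2.48-fold and 4.97-fold lower; edgeR adjusted p = 7.7e-04). Crb3, an apical polarity protein, had 2 against 20 and 9. Epcam, an epithelial adhesion molecule, had 401 against 1299 in SFM replicate 1 (log2 change −1.61 ± 0.29, edgeR adjusted p = 4.3e-05), but 153 in SFM replicate 2. Esrp1, an epithelial splicing factor, also fell against the first control only. Of 9 tested mesenchymal genes none was called, with a median log2 change of −0.48.

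The FGF list showed lower values in SB than in SFM replicate 1 for ligands, for receptors and for the feedback genes that FGF signalling through ERK induces. All 15 tested genes had negative log2 changes, with a median of −1.30. The 6 that were called were each also at least 2-fold below both controls, and no FGF receptor gene was among them. Etv4, an ETS factor induced by FGF, had 21 counts in SB and 136 and 120 in the controls (6.06-fold and 8.79-fold lower; log2 change −2.60 ± 0.42, edgeR adjusted p = 1.3e-06). Its relative Etv5 had 255 against 921 and 358 (edgeR adjusted p = 7.7e-06). Spry4, a Sprouty feedback inhibitor, had 40 against 225 and 205 (5.26-fold and 7.88-fold lower; edgeR adjusted p = 2.4e-07).

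Il17rd, the FGF antagonist Sef, had 786 counts in SB and 2061 and 2249 in the controls (log2 change −1.30 ± 0.29, edgeR adjusted p = 0.00122). Fgf15, a ligand of neural and other tissue, had 151 against 439 and 481 (log2 change −1.45 ± 0.32, edgeR adjusted p = 0.00136). Scaled for depth, SB lay below both controls for each gene, and SFM replicate 2 was the highest of the 3: Il17rd had 49.2 CPM in SB against 121 and 217 CPM, and Fgf15 had 9.46 CPM against 25.7 and 46.4 CPM. Dusp6 (390 against 725 and 444) and Spry2 (8 against 34 and 5) were not called, and neither was Fgf8, with 0 against 8 and 6. The summed level of the list was 132.5 CPM in SB, 330.7 and 457.5 in the controls and 670.2 to 1488 in the activin libraries.

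**Figure D4:**
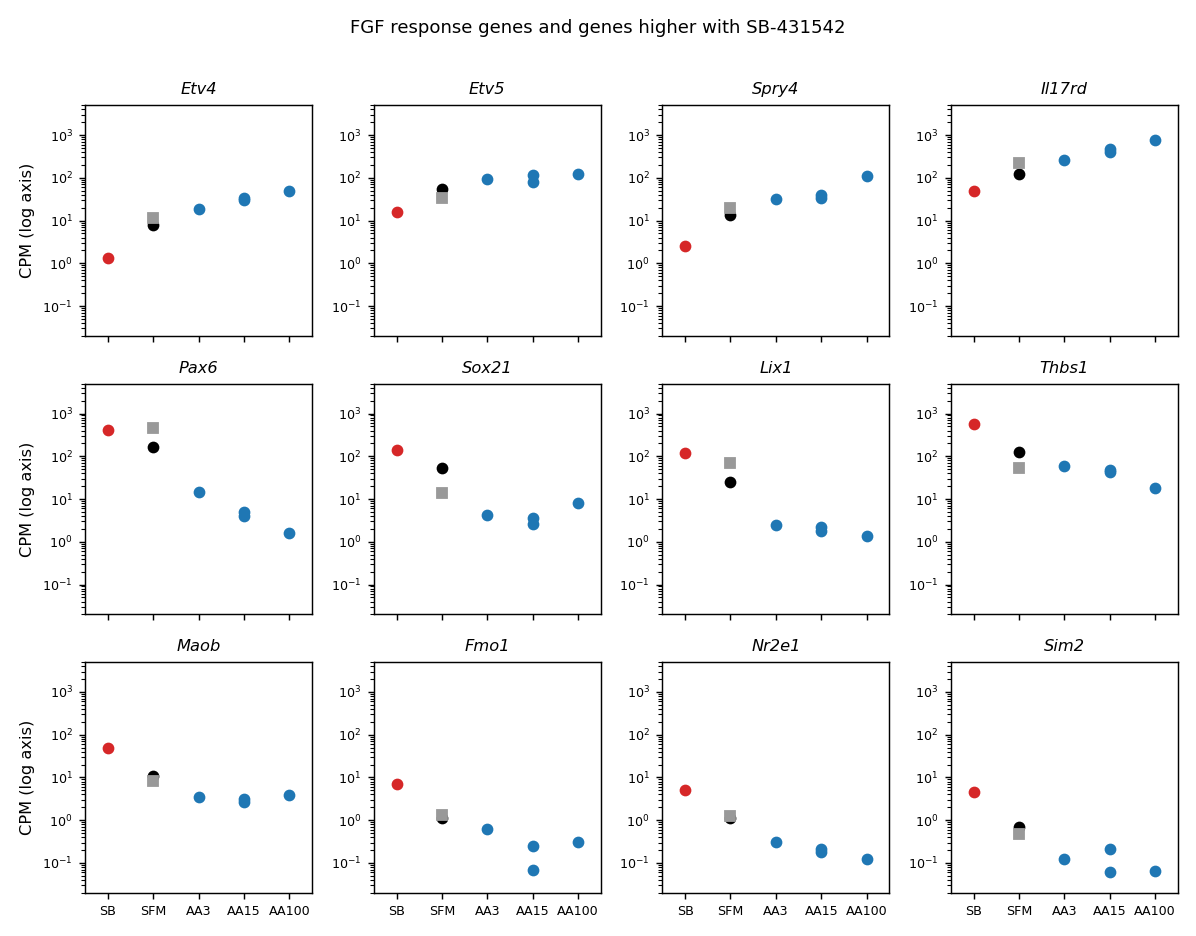
TMM-scaled CPM on a log axis for 4 FGF response genes (top row) and 8 genes higher in SB, with the symbols of the plot of the lower genes (SB red, SFM replicate 1 black circle, SFM replicate 2 grey square, activin blue, open triangle 0 counts). Etv4, Etv5, Spry4 and Il17rd are lowest in SB; Sox21, Lix1, Thbs1, Maob, Fmo1, Nr2e1 and Sim2 are highest in SB, while Pax6 is 410.4 CPM there and 464.9 CPM in SFM replicate 2.

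Several neural genes rose. Sox21, a SoxB factor of neural progenitors, had 2283 counts in SB, 906 in SFM replicate 1 and 145 in SFM replicate 2 (2.70-fold and 10.2-fold higher; log2 change +1.42 ± 0.30, edgeR adjusted p = 4.6e-04). Pax6, the paired-box factor of forebrain and eye progenitors, had 6551 counts against 2841 in SFM replicate 1 (log2 change +1.29 ± 0.28, edgeR adjusted p = 0.00101). SFM replicate 2, at 4824 counts, was 1.13-fold above SB after scaling, so this rise held against 1 control. In the activin libraries Pax6 had 25 to 230 counts. Fezf2, of the forebrain, had 1668 against 906 and 52 (edgeR adjusted p = 0.0382). Neurod1, a proneural factor, had 764 against 395 and 212 (edgeR adjusted p = 0.0259). Among 10 tested proneural and early neuron genes it was the 1 call, with 5 others higher and 4 lower without a call.

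The neural plate list did not move as a whole. Of 29 tested genes 3 rose and 3 fell, with a median log2 change of +0.28. The falls included the zinc-finger genes Zic1 and Zic2, which are expressed in epiblast as well as neural plate. Zic1 had 219 counts in SB, 498 in SFM replicate 1 and 63 in SFM replicate 2 (log2 change −1.10 ± 0.31, edgeR adjusted p = 0.018), and Zic2 had the same layout, with SB between the controls. The summed level of the list was 1471 CPM in SB, 1038 and 1354 in the controls and 466.3 to 554.6 in the activin libraries. Of 7 tested genes of neural crest and surface ectoderm 2 rose, 1 fell (Krt8) and 4 were lower without a call. Their median log2 change was −0.38. Sox9 rose from 80 to 240 counts, with 161 in SFM replicate 2. With SFM replicate 2 as the only control its log2 change was −0.05, so this rise held against 1 control. Gata3 rose from 286 to 541, with 27 in SFM replicate 2.

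Large rises were also seen in genes outside the lists. Lix1, a gene of early neural tissue, had 1908 counts in SB against 423 and 713 (4.83-fold and 1.74-fold higher; log2 change +2.26 ± 0.31, edgeR adjusted p = 1.1e-08). Thbs1, the matrix protein thrombospondin, had 8972 against 2172 and 560 (4.42-fold and 10.4-fold higher; edgeR adjusted p = 6.2e-09). Maob, a monoamine oxidase, had 787 against 184 and 85 (4.58-fold and 6.02-fold higher; edgeR adjusted p = 3.0e-07). In each of them SB was the highest library of the dose set.

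Sim2 and Nr2e1, transcription factor genes of the developing brain, rose and had at most 5 counts in any activin library. Sim2 had 74 against 12 and 5 (edgeR adjusted p = 0.00499). Nr2e1, the Tlx receptor of neural stem cells, had 83 against 19 and 13 (edgeR adjusted p = 0.0108). The other large rises, with edgeR adjusted p from 3.9e-04 to 0.019, included Fmo1, Cenpk, St8sia4, Plcl1, Flrt2 and Kcnj2; for Plcl1 and Flrt2 SFM replicate 2 came within 1.10-fold of SB.

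Genes of other signalling pathways were mostly not called, where 2.7% of all genes tested fell and 1.42% rose. None of 9 tested BMP ligand, receptor and Smad genes was called. Their log2 changes ran from −0.50 to +2.22 (median −0.11), and 1 gene was at least 2-fold above both controls. Hand1 alone fell among 11 BMP response genes. Of 11 Wnt response genes T alone fell, and of 6 Wnt ligands Wnt8a alone. Ccn4, a secreted protein known as a Wnt target, was among the largest falls, with 15 counts against 153 and 102 (9.54-fold and 10.5-fold lower; edgeR adjusted p = 2.8e-08). None of 10 general TGF-β response genes, 7 retinoic acid genes, 21 proliferation genes, 12 p53 targets or 8 immediate early and stress genes was called. Of 16 hypoxia and glycolysis genes all had negative log2 changes (median −0.40) and 2 fell, among them Adm, the peptide adrenomedullin, at 4 counts against 48 and 47 (edgeR adjusted p = 6.4e-04).

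Some genes often used as technical references were called. Of 11 housekeeping genes 2 rose, Gapdh and B2m, a larger share than the 1.42% of all genes tested. Of 75 tested ribosomal protein genes 3 fell (Rps15a, Rps19 and Rps27l), a share near the 2.7% of all genes tested, with a median log2 change of −0.12 for the group. Rps19 had 57881 counts against 154972 and 68, and in the AA15 pair it had an SD of 3452 CPM around a mean of 7036 (n = 2).

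**Figure D5:**
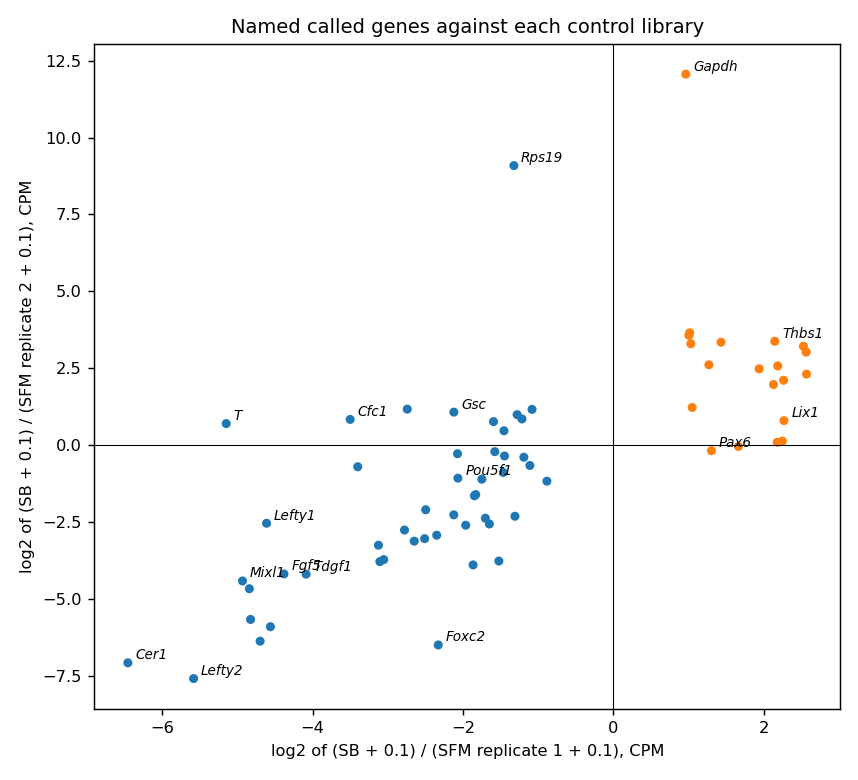
Log2 ratio of SB to SFM replicate 2 (y axis) against the log2 ratio of SB to SFM replicate 1 (x axis), CPM + 0.1, for 68 named genes that were called (blue lower, orange higher). Of 48 lower genes 38 also lie below 0 on the y axis, and of 20 higher genes 18 lie above it; T, Gsc, Cfc1, Rps19 and Pax6 are among those on opposite sides, and the axes share the SB library.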

How the data were processed

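The values are whole-number counts of unique reads per RefSeq transcript, per the file headers, as the authors deposited them. For 1 library used only in an alternative, a deposited value was not whole, so its values were treated as estimated counts, which the authors' table gives per transcript, and rounded. No aligner, counting rule, RefSeq release or genome build is given in the sources used here; if reads shared by several transcripts were dropped, near-identical genes have too few counts. Overlapping and antisense genes cannot be separated without strand.

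Of 26566 transcripts, 25853 were named from the RefSeq gene table and 154 from GENCODE; 559 kept their identifier. Counts were summed over 21844 genes. Groups follow the labels. edgeR 4.0.16 in R 4.3.3 fitted SFM replicate 1, SB and the 4 activin libraries of the dose set by group (filterByExpr, minimum count 10 and total 15; TMM; robust quasi-likelihood), with Benjamini-Hochberg adjustment at 0.05 and 1 residual degree of freedom, from the AA15 technical pair. Counts per library were 13053122 to 15707808. Alternatives were edgeR fits with other controls, scaling, filters or spread, and DESeq2 1.42.0. Tested on simulated data for this comparison (11881 genes), 31.03% of 2-fold, 88.9% of 4-fold and 100% of 8-fold changes were recovered, and 5% of calls were false. Changes were planted only in genes above a minimum fitted count in SFM replicate 1. All simulated libraries varied as the fit assumes from the AA15 pair. The 5% therefore cannot show how many of the real calls are false.

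After ±, log2 changes carry their standard error and CPM their SD. Folds are ratios of TMM-scaled counts with exact (Clopper-Pearson) 95% intervals from scipy 1.17.1. These intervals hold for counting error alone because PCR copies are not separate molecules. For a gene at 0 in a library, that library was set at a floor of 3 counts and the other count was taken as exact. Such a fold is not the lower limit of an interval. For the 2-fold counts against both controls, a gene needed at least 20 counts in the higher library of each pair. Named genes are the 5 markers, the pathway and target lists, up to 4 members of each other list with the largest change among calls, and the 12 largest called rises and falls with at least 50 counts and the same direction against both controls, without unnamed models, pseudogenes and ribosomal copies. A selection is printed; some genes are not reported here. Dll1, Sox2, Esrp1, Il17rd, Fgf15, Dusp6, Spry2, Fezf2 and Zic2 lie outside this rule and were chosen after their values were seen. The comparison, members and lists were chosen with earlier results of these data known. Figures and tables used Python 3.11.15, pandas 2.3.3 and matplotlib 3.10.9. Of the listed genes, Apela and H19 were not matched and were not analysed here.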

Additional observations from a re-analysis of the deposited data

How the results depend on the processing

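The controls decided most. With both SFM libraries as replicates edgeR called 0 genes lower and 0 higher, and all 68 named calls were lost. Without SFM replicate 1, edgeR called 3318 genes lower and 3737 higher, of which 185 and 92 were shared with the reported 326 and 172; 49 named calls kept their direction and call and 7 lost the call. Called genes that turned in log2 change in that setting were Cfc1 1.30, Dll3 0.86, Epcam 0.76, Gata4 0.47, Gsc 1.61, Hoxa5 3.99, Pax6 −0.19, Rps19 9.11, Rps27l 1.00, Sox9 −0.051, T 0.75 and Zic1 1.17. Genes not called in the reported fit that turned there were Acvr2b 5.30, Bambi −1.28, Drap1 2.42, Foxa2 1.48, Foxh1 0.40, Inha −0.84, Pcsk6 1.77, Ski −1.65, Smad3 0.45, Smad4 0.33, Smurf2 −0.30, Tgfbr3 −0.55, Tgif1 2.38 and Tgif2 −2.13. With both SFM libraries as replicates, Acvr2b 0.76, Bambi −0.60, Drap1 0.46, Inha −0.41, Pcsk6 0.31, Ski −1.002, Tgfbr3 −0.27, Tgif1 0.42 and Tgif2 −1.40 turned, and with total count scaling Tgfbr3 did, at −0.011; the cause was not tested. DESeq2 called 63 lower and 25 higher and kept 32 named calls, the markers Lefty1, Lefty2, Cer1, Tdgf1 and Fgf5 among them. Adding the 10 ng and 1 ng dilution pairs of the AA3 sample gave 296 and 225 calls and lost 8 named ones (Gata3, Gsc, Hand1, Hoxa5, Kcnj2, Rps19, Rps27l and Smad2). With those pairs and 1 AA15 library left out the range was 620 to 630 lower and 501 to 508 higher. RLE size factors gave 346 and 213 calls, total count scaling 371 and 129, no filter 338 and 168, and a minimum of 50 counts 236 and 143. Of the genes at least 2-fold below or above both controls (250 and 166), 45 and 14 were at least 4-fold, 152 and 107 remained with at least 50 counts, and against SFM replicate 1 alone there were 596 and 315. Leaving out an AA15 library without added pairs left no residual degree of freedom. No paired analysis was possible because SB has 1 library, so the groups share fewer than 2 replicate numbers. A 2-fold change was recovered in 31.03% of simulated cases, so a gene that was not called may differ.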

Other observations

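The genes in these paragraphs were chosen after their values were seen, so their values are a description. Of 12 genes known from interferon responses described here, 4 were called lower in SB and 8 were not called. Gbp2, a guanylate-binding protein, had 0 counts in SB, 21 and 16 in the SFM libraries and 86 to 214 in the activin libraries. Oasl2 had 0 in SB, 16 and 18 in the controls and 54 to 167 with activin. Irgm2, an immunity-related GTPase, had 44 in SB, 218 and 182 in the controls and 560 to 846 with activin, and Parp12 had 4, then 39 and 16, then 76 to 169. All 4 were called lower by edgeR, with adjusted p from 3.3e-06 to 0.00267. Of those not called, Stat2 had 85 counts in SB against 89 and 90, Ifit2 104 against 119 and 140, Bst2 25 against 69 and 51, and Isg15 3 against 8 and 9. The other genes not called, Gbp2b, Gbp3, Gbp4 and Ifit1, had at most 4 counts in SB and 4 to 13 in SFM replicate 1.

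Among genes of GABA synthesis and uptake, 1 of the 3 looked up was below both controls. Gad2, a glutamate decarboxylase, had 5 counts in SB and 50 and 15 in the controls (edgeR adjusted p = 4.8e-04). Its paralogue Gad1 had 20 against 64 in SFM replicate 1 but 11 in SFM replicate 2. Slc6a13, a GABA transporter, had 15 against 124 in SFM replicate 1 and 0 in SFM replicate 2. Brinp1, a gene known from neurons, had 0 counts in SB, 45 and 84 in the controls and 260 to 452 with activin (edgeR adjusted p = 6.2e-08).

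Secreted factors and receptors of other pathways differed too. Rspo3, an R-spondin that strengthens Wnt signals, had 9 counts in SB against 92 and 580 (edgeR adjusted p = 1.9e-07). The Wnt receptor genes Fzd1 and Fzd3 went the other way: Fzd1 had 6391 counts in SB against 2108 and 111, and Fzd3 had 4469 against 1526 and 694. Edn1, the peptide endothelin, had 1059 counts in SB, 358 and 169 in the controls and 2 to 6 in the activin libraries (edgeR adjusted p = 1.2e-04). Shh, the hedgehog ligand of notochord and floor plate, had 0 counts in SB against 15 and 5.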
